A study of Drosophila melanogaster with 6 samples.

Results

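The aminoacyl-tRNA synthetase genes of Drosophila melanogaster were compared between whole flies of an old age group (45 days) and a young age group (3 days). The members were all probe sets whose gene symbol starts with Aats-, the older fly prefix for this family, or has the form of an amino acid code followed by RS, with or without -m for mitochondrial. The rule reads the symbols and no measured value. The rule found 24 probe sets of 23 genes among 18769 probe sets and 13244 gene labels, with 2 probe sets for Aats-trp and 1 for each of the other genes. All 23 genes had a current name in the RefSeq gene table. The suffix _s_at of 3 probe sets (Aats-ile, Aats-thr and Aats-val) marks probes that match several transcripts, so their values may hold more than 1 of them. Whether the 5 probe sets with the suffix _a_at also hold several transcripts was not examined.

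Both age groups came from the isogenic stock y(1), w67c23(2), cultured at 20 °C with no drug, transgene or mutant contrast between the groups. According to the labels, each sample was total RNA of 100 female and 100 male flies, and there were 3 old samples (45 days) and 3 young samples (3 days), named Old4 to Old6 and Young1 to Young3 after the columns of the deposited table. Each sample was hybridized to its own Affymetrix GeneChip Drosophila Genome 2.0 array. The values are log2 intensities after GCRMA normalization, in which a difference of 1 is a 2-fold change, and a value reflects the affinity of its probes as well as the transcript, so levels of different probe sets are not compared.

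Aminoacyl-tRNA synthetases join each amino acid to its tRNA the step that fixes how each codon is read. Their catalytic domains belong to 2 unrelated structural classes, class I and class II. Mitochondria translate their own messages, and for many amino acids a separate nuclear gene encodes the mitochondrial enzyme, whereas for some amino acids a single gene supplies both compartments. In mammals several of the cytosolic enzymes are held in a multi-synthetase complex with scaffold proteins named AIMP, and uncharged tRNA is sensed by the kinase Gcn2, which leads to translation of ATF4 and transcription of many synthetase genes.

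The samples were checked against the labels before the family was described. All 7 testis markers were at 2.68 or less on the log2 scale on all 6 arrays, and 6 of 7 male accessory gland markers were under log2 4 on all of them, although the labels and the methods give flies of both sexes, whereas the study's text elsewhere speaks of female flies. The exception was Acp95EF, at 12.92 to 12.97 in old and 12.95 to 13.00 in young samples. The array medians were 2.45 to 2.47 in both age groups, and 55.7% to 56.2% of the values were under log2 4. Markers of several tissues moved with age. The summed level of 10 eggshell genes was 16.12 in Old4, 14.49 in Old5 and 10.25 in Old6, against 17.11 to 17.16 in young samples, with all 10 lower in old flies and 0 at FDR under 0.05 in limma (4 at unadjusted p under 0.05). The summed level of 5 flight muscle genes was 13.52 to 14.84 in old and 16.04 to 16.27 in young samples (5 lower, 2 of them at FDR under 0.05). That of 6 gut genes was 15.25 to 15.55 in old and 15.89 to 16.04 in young samples (5 lower, of which 4 at FDR under 0.05, and 1 higher at that threshold). By the study's 3 criteria, given below, all 5 flight muscle genes, 1 eggshell gene and 1 gut gene were lower in old flies. Of all probe sets, 6.41% passed these criteria in either direction, and 10.9% of those with a mean of log2 6 or more. The sums of germline and fat body genes overlapped between the age groups (15.51 to 15.59 in old and 15.51 to 15.64 in young samples for 5 germline genes, and 15.28 to 15.35 in old and 15.08 to 15.65 in young samples for 4 fat body genes), although single genes changed. By their brightest probe sets, bmm rose by 0.51 (FDR 0.00268) and Fbp1 by 0.38 (FDR 0.0145), both of the fat body, as did the germline gene bcd by 0.20 (FDR 0.0446), and another Fbp1 probe set fell by 5.60 (FDR 0.00565). The neuron sum was 10.87 to 11.05 in old and 11.08 to 11.66 in young samples (4 genes, 2 of them under log2 4 on all arrays), and the hemocyte sum was 8.77 to 9.18 in old and 8.01 to 8.37 in young samples (3 genes, 1 of them under log2 4 on all arrays), with 0 genes of either at FDR under 0.05 in limma. At unadjusted p under 0.05 there was 1 hemocyte probe set, higher in old flies, and 0 neuron probe sets. Of all probe sets, 12.7% were at FDR under 0.05 and 24.1% at unadjusted p under 0.05. Of those with a mean of log2 6 or more, the shares were 26.2% and 48.1%. The part of these tissue differences in the synthetase values was not tested, and in whole flies fewer cells of a type and less RNA per cell cannot be told apart.

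The synthetase genes were detected at both ages and differed little between them. None of the 24 probe sets was under log2 4 in all samples, and the values ran from 4.19 for Aats-pro to 13.47 for Aats-asp. The old minus young differences lay between −0.76 and 0.30, with a median of −0.13, against 0.00 over all probe sets tested. A total of 20 probe sets had a lower mean in old flies and 4 a higher one, that is, 83.3% were lower, against 46.9% of all probe sets and 44.0% of the 7717 probe sets with a mean of log2 6 or more.

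By the study's 3 criteria (fold difference above 2, p under 0.05 and FDR under 15%), 0 synthetase probe sets were differentially expressed in limma, and 0 with the methods' t-test in its place. The background was 6.41% of all probe sets (3.45% higher and 2.96% lower in old flies) and 10.9% of those with a mean of log2 6 or more (5.88% higher and 5.01% lower). Without the fold criterion, at FDR under 0.05, 1 probe set rose (Aats-asp) and 1 fell (Aats-phe-m). This is 8.33% of the family, against 12.7% of all probe sets (6.91% higher, 5.82% lower) and 26.2% of those with a mean of log2 6 or more (14.4% higher, 11.8% lower). At unadjusted p under 0.05 there were 2 higher and 6 lower of the 24 synthetase probe sets. The background at that threshold was 24.1% of all probe sets (13.6% higher, 10.5% lower) and 48.1% of those with a mean of log2 6 or more (27.3% higher, 20.8% lower).

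The replicates were close together. The SD of 3 samples ranged from 0.01 to 0.25 among old and from 0.01 to 0.27 among young samples, with a median over the family of 0.06 in old and 0.11 in young samples. The 95% interval of the difference stayed within 0.5 log2 units of 0 in 19 of 24 probe sets and within 1 unit, a 2-fold change, in 23 of 24. The shares were 79.2% and 95.8%, against 76.8% and 87.9% of all probe sets and 57.1% and 79.9% of those with a mean of log2 6 or more. Old and young samples did not overlap in 12 of 24 probe sets (3 higher and 9 lower in old flies), which is 50.0%, against 28.7% of all probe sets (16.1% higher, 12.6% lower) and 53.6% of those with a mean of log2 6 or more (30.3% higher, 23.3% lower).

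**Figure D1:**
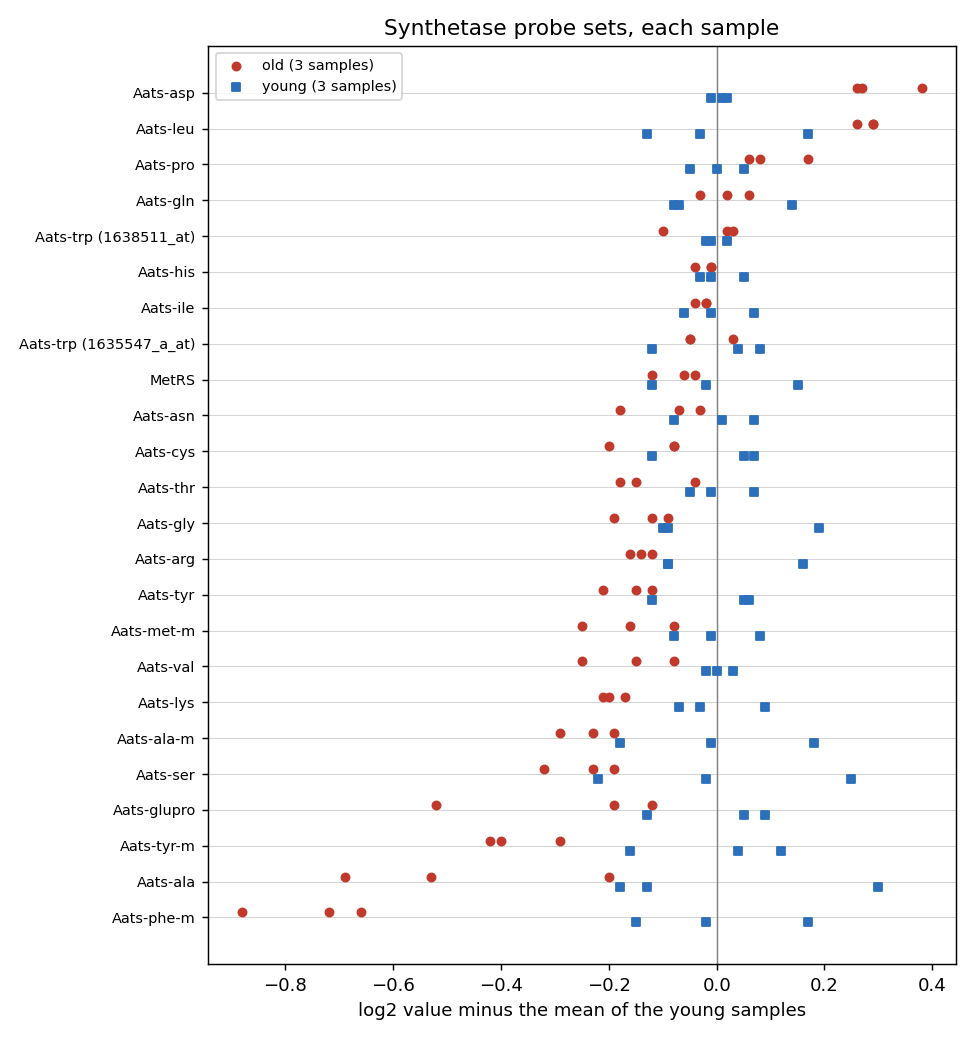
Each synthetase probe set in each sample, as the log2 value minus the mean of the young samples (x axis, log2 units); circles are the 3 old and squares the 3 young samples, and rows are ordered by the difference. Aats-asp and Aats-leu lie to the right of all their young samples, and Aats-phe-m, Aats-ala and Aats-tyr-m lie farthest to the left.

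The young samples were not alike across the family. Young1 had the highest value of the young group in 17 of 24 synthetase probe sets, whereas it was the highest in 46.8% of probe sets with a mean of log2 6 or more. Young2 had the lowest value of the young group in 16 of 24. Among old samples, Old6 was the lowest in 11 and Old5 the highest in 12. The median difference was −0.10 without Young1 and −0.16 without Young2, and its sign was the same in both cases.

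Mitochondrial enzymes had the widest range of differences. RefSeq names place 7 of the 23 genes in the mitochondrion, among them Aats-leu, Aats-pro and Aats-ser, whose older symbols do not show it. Their differences ran from −0.76 to 0.28 with a median of −0.24, 5 lower and 2 higher, and old and young samples did not overlap in 6 of the 7 (85.7%, against 28.7% of all probe sets and 53.6% of those with a mean of log2 6 or more). In Aats-ala-m, Aats-met-m and Aats-pro the gap was a single hundredth or less, and the values of Aats-pro were near the low end of the scale. The median SD of the mitochondrial members was 0.07 in old and 0.16 in young samples. For the other 17 probe sets it was 0.05 and 0.10. The part of this replicate spread in the wider range of differences was not tested.

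Aats-phe-m (PheRS-m, FBgn0020766), which charges the mitochondrial tRNA for phenylalanine, was the only member downregulated at FDR under 0.05 in old flies. Its values were 8.79, 8.95 and 9.01 in Old4 to Old6, against 9.84, 9.52 and 9.65 in Young1 to Young3. All old samples were thus below all young samples, by at least the gap between 9.01 and 9.52. The difference was −0.76 (SE 0.104, 95% interval −1.02 to −0.49), a fold difference of −1.69, with an FDR of 0.0134 in limma. Without Old5 the difference was −0.77 and the FDR 0.0563.

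Aats-tyr-m, the mitochondrial tyrosine enzyme, had 10.15, 10.04 and 10.02 in old samples, against 10.48, 10.28 and 10.56 in young samples. The groups did not overlap, and the difference of −0.37 (SE 0.0845, 95% interval −0.59 to −0.15) had an FDR of 0.0569. Without Young2 it was −0.45 with an FDR of 0.0265. Aats-leu, the mitochondrial leucine enzyme, differed in the other direction, with 11.85, 11.88 and 11.88 in old samples, against 11.76, 11.56 and 11.46 in young samples. The old samples had a mean of 11.87 (SD 0.01) and lay above every young sample, and the difference was 0.28 (SE 0.082, 95% interval 0.07 to 0.49, FDR 0.112). Without Young1, the young sample nearest to the old ones, it was 0.36 with an FDR of 0.0129.

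The remaining mitochondrial members had smaller or less certain differences. Aats-ala-m (alanine) had 10.48, 10.38 and 10.44 in old samples, against 10.85, 10.49 and 10.66 in young samples, a difference of −0.24 with an FDR of 0.245. Aats-ser (serine) had 9.98, 9.85 and 9.94 in old samples, against 10.42, 10.15 and 9.95 in young samples, and these overlapped (−0.25, FDR 0.368). Young1 was the highest sample in both, and without it the difference was −0.14 for Aats-ala-m and −0.13 for Aats-ser.

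Aats-met-m (methionine) had 6.58, 6.75 and 6.67 in old samples, against 6.75, 6.91 and 6.82 in young samples, with a difference of −0.16 and an FDR of 0.204. Aats-pro (proline) had the lowest values of the family, 4.41, 4.30 and 4.32 in old samples, against 4.24, 4.19 and 4.29 in young samples. Its difference of 0.10 (FDR 0.219) comes from values near the low end of the scale and became −0.00 when values under log2 6 were raised to 6.

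**Figure D2:**
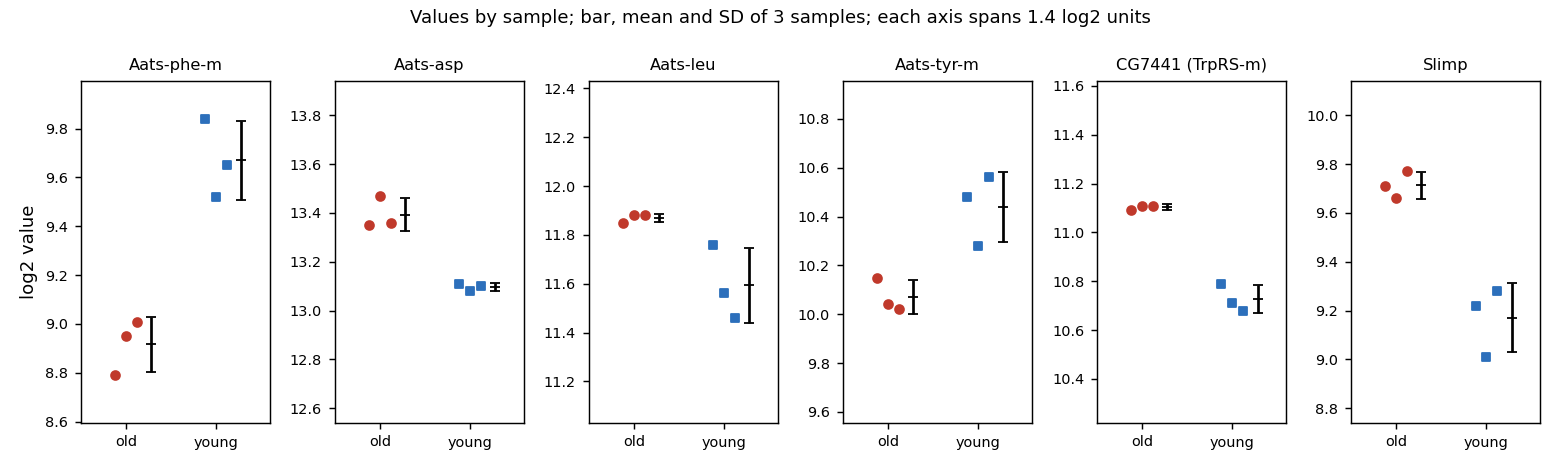
Log2 value of 6 genes in each sample (y axis, log2 units; each axis spans the same number of units but starts at a different value), old samples on the left (circles) and young samples on the right (squares), with the mean and SD of 3 samples beside them. In none of the 6 genes do the groups overlap. Aats-phe-m and Aats-tyr-m are lower in old samples and the other 4 genes are higher.

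Cytosolic enzymes had small differences, most of them toward lower values in old flies. The 13 probe sets of cytosolic genes had a median difference of −0.10, ran from −0.47 to 0.30, and 11 were lower in old flies. At FDR under 0.05, 1 rose and 0 fell (7.69%, against 12.7% of all probe sets and 26.2% of those with a mean of log2 6 or more), and 3 passed an unadjusted p under 0.05 (1 higher, 2 lower).

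Aats-asp (AspRS, FBgn0002069), the cytosolic aspartate enzyme, was the only member upregulated at FDR under 0.05 in old flies. It had 13.35, 13.47 and 13.36 in Old4 to Old6, against 13.11, 13.08 and 13.10 in Young1 to Young3. The young samples were nearly equal (SD 0.01), and the lowest old sample lay above the highest young one. The difference was 0.30 (SE 0.0364, 95% interval 0.21 to 0.40), a fold difference of 1.23, with an FDR of 0.00968 in limma. Its FDR stayed between 0.00279 and 0.0429 over the 15 alternatives tried.

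Aats-ala, the cytosolic alanine enzyme, had the largest cytosolic difference but also the largest spread. Its values were 8.49, 8.82 and 8.33 in old samples, against 9.32, 8.84 and 8.89 in young samples. Old5 nearly met Young2, and Young1 stood above both other young samples. The difference was −0.47 (SE 0.192, 95% interval −0.97 to 0.03), with an FDR of 0.233, and it was −0.32 without Young1.

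Aats-glupro, which carries the glutamate and the proline enzyme in a single protein, had 11.31, 11.71 and 11.64 in old samples, against 11.92, 11.88 and 11.70 in young samples. Old4 was low, and Old5 overlapped with Young3. The difference was −0.28 (95% interval −0.62 to 0.06, FDR 0.299), and −0.16 without Old4.

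Aats-val (valine) had 10.54, 10.61 and 10.44 in old samples, against 10.69, 10.67 and 10.72 in young samples. The groups did not overlap, and the difference was −0.16 with an FDR of 0.109. Aats-tyr (tyrosine) had 11.02, 11.05 and 10.96 in old samples, against 11.23, 11.05 and 11.22 in young samples (−0.16, FDR 0.197), where the highest old and the lowest young sample were the same at 2 decimals. Without Young2 the difference of Aats-tyr was −0.22 with an FDR of 0.0345. Aats-arg (arginine) had 12.73, 12.71 and 12.75 in old samples, against 12.78, 12.78 and 13.03 in young samples (−0.13, FDR 0.449).

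For the other cytosolic genes the age groups overlapped. Aats-cys (cysteine) differed by −0.12, Aats-asn (asparagine) by −0.10, MetRS (methionine) by −0.07, Aats-ile (isoleucine) by −0.02 and Aats-gln (glutamine) by 0.02. Both probe sets of Aats-trp (tryptophan) gave about the same result, −0.01 (95% interval −0.12 to 0.09) and −0.03 (95% interval −0.19 to 0.13). Among these genes, the 95% intervals reached no farther than −0.30 for Aats-cys on the lower side and 0.20 for Aats-gln on the upper side.

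In 4 genes, for glycine, histidine, lysine and threonine, RefSeq names no separate mitochondrial gene, as for glutamine, whose enzyme was counted with the cytosolic ones. Aats-lys, the lysine enzyme, had 12.70, 12.67 and 12.66 in old samples, against 12.96, 12.84 and 12.80 in young samples. All old samples were below all young samples, and the difference of −0.19 (SE 0.0446, 95% interval −0.30 to −0.07) had an FDR of 0.0642. Without Young1 it was −0.14 with an FDR of 0.0314.

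Aats-his, the histidine enzyme, had the narrowest interval of the 4. It had 11.31, 11.31 and 11.28 in old samples, against 11.29, 11.37 and 11.31 in young samples, a difference of −0.02 (95% interval −0.08 to 0.04). Aats-gly and Aats-thr each differed by −0.13 (FDR 0.55 and 0.233), and their groups overlapped.

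**Figure D3:**
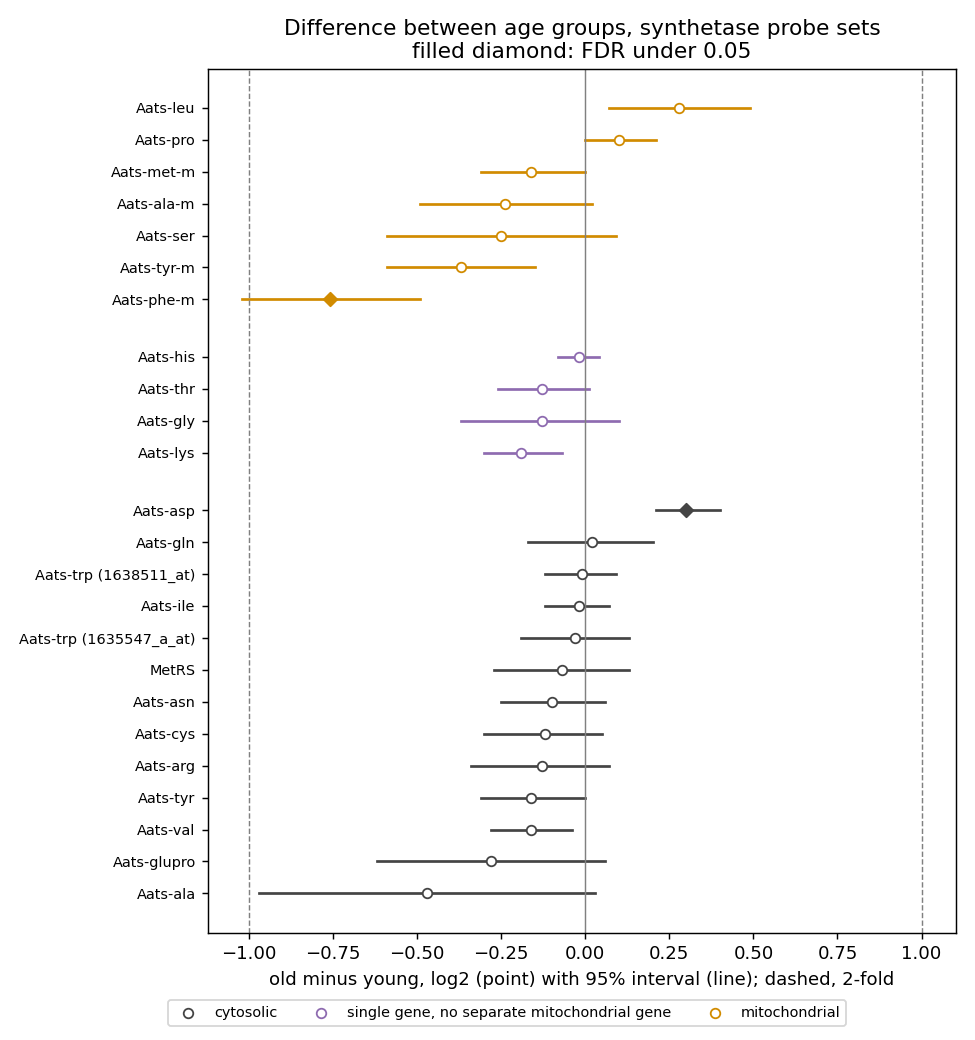
Old minus young difference of each synthetase probe set (x axis, log2 units; point) with its 95% interval (line), grouped into mitochondrial, single gene and cytosolic enzymes; a filled diamond is an FDR under 0.05 and dashed lines mark a 2-fold change. Only the interval of Aats-phe-m crosses a dashed line, at −1.02.

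Grouped by structural class, the 12 class I probe sets had a median difference of −0.10 with 0 at FDR under 0.05 (1 higher and 4 lower at unadjusted p under 0.05). The 11 class II probe sets had a median of −0.13, with 1 rising and 1 falling at FDR under 0.05 (18.2%). At that threshold the backgrounds were 12.7% of all probe sets and 26.2% of those with a mean of log2 6 or more. At unadjusted p under 0.05 they were 24.1% and 48.1%. Aats-glupro belongs to both classes. Of the 7 members whose mammalian counterparts sit in the multi-synthetase complex, 2 were higher and 5 lower in old flies. Their median was −0.07, with 1 at FDR under 0.05 (Aats-asp, 14.3%). The other 17 probe sets had a median of −0.13, with 1 at FDR under 0.05 (5.88%). The groups by class and by complex were described only, and no test of a difference between them was made.

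**Figure D4:**
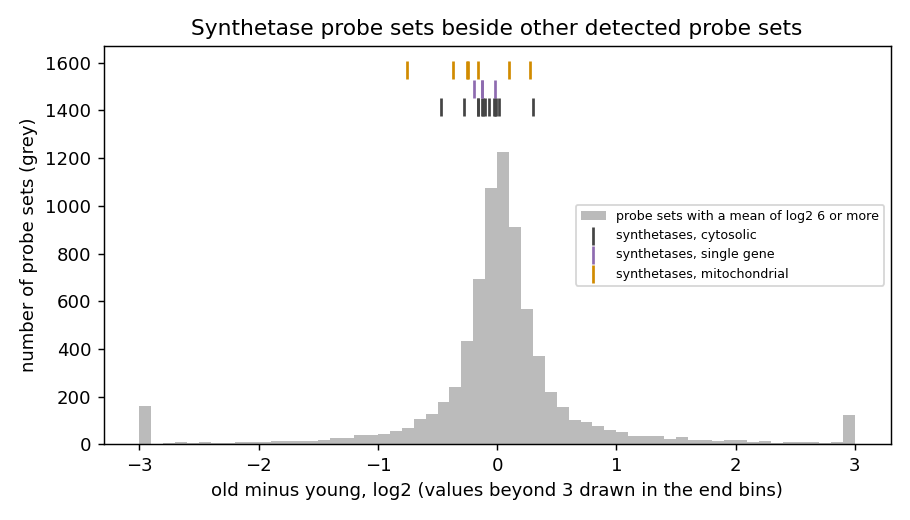
Old minus young difference (x axis, log2 units) of the 24 synthetase probe sets (ticks at the top, in rows by compartment) over a histogram of the 7717 probe sets with a mean of log2 6 or more (grey, y axis in number of probe sets; values beyond 3 are drawn in the end bins). The ticks span −0.76 to 0.30, with most of them left of 0.

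By RefSeq symbols, with Slimp added by name, the family has 36 genes in this fly. The other 13 were on the array under symbols that the rule does not match, each with 1 probe set. They were examined to complete the family. Of these 13, 3 were higher and 10 lower in old flies, with a median of −0.18. At FDR under 0.05, 2 rose and 0 fell (15.4%, against 12.7% of all probe sets and 26.2% of those with a mean of log2 6 or more). Old and young samples did not overlap in 9 of 13 (69.2%, against 28.7% and 53.6% for the same backgrounds). Some of these gaps were narrow. The highest old and lowest young values were 8.20 and 8.21 for AsnRS-m and 12.31 and 12.33 for LeuRS. They were 12.25 and 12.28 for SerRS and 7.11 and 7.14 for IleRS-m. The 2 that rose were TrpRS-m, listed as CG7441, and Slimp, a mitochondrial paralog of seryl-tRNA synthetase that has lost the charging activity.

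TrpRS-m, the mitochondrial tryptophan enzyme, had 11.09, 11.11 and 11.11 in old samples, against 10.79, 10.71 and 10.68 in young samples. The groups were well apart, with a difference of 0.38 (SE 0.0313, 95% interval 0.30 to 0.46, fold difference 1.3, FDR 0.00388). Slimp had 9.71, 9.66 and 9.77 in old samples, against 9.22, 9.01 and 9.28 in young samples. The difference was 0.54 (SE 0.0824, 95% interval 0.33 to 0.76, fold difference 1.46, FDR 0.0178), and the FDR was 0.0613 to 0.0788 when an old sample was left out.

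The 2 subunits of the cytosolic phenylalanine enzyme were both lower in old flies without passing the threshold. The catalytic subunit gene alpha-PheRS had 11.24, 11.36 and 11.27 in old samples, against 11.60, 11.50 and 11.75 in young samples (−0.33, FDR 0.0567; without Young2, −0.39 and FDR 0.0498). The gene for its partner beta-PheRS had 11.08, 10.99 and 11.02 in old samples, against 11.28, 11.14 and 11.41 in young samples (−0.25, FDR 0.112). In both, the groups did not overlap.

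The cytosolic LeuRS (CG33123) and SerRS (CG17259) differed by −0.22 and −0.18, with FDR of 0.148 and 0.123, and without Young2 LeuRS differed by −0.29 (FDR 0.0262). Among mitochondrial enzymes, CysRS-m (CG8257) had 8.67, 8.58 and 8.63 in old samples, against 9.66, 9.06 and 9.02 in young samples. Young1 stood above the other young samples, and the difference of −0.62 had an FDR of 0.128. Without Young1 it was smaller, −0.41, with an FDR of 0.011, and the FDR was 0.0499 when probe sets under log2 6 in both groups were left out. IleRS-m (CG5414) had 7.09, 6.53 and 7.11 in old samples, against 7.84, 7.14 and 7.45 in young samples (−0.56, FDR 0.279), and Old5 was the low sample. The difference was −0.38 without Old5 or without Young1. AsnRS-m, ArgRS-m, ValRS-m, AspRS-m and GluRS-m lay between −0.27 and 0.02.

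Over all 37 probe sets of the 36 genes, 30 were lower and 7 higher in old flies. At FDR under 0.05, 3 rose, Slimp among them, and 1 fell (10.8%, under both backgrounds). The 16 mitochondrial probe sets had a median difference of −0.15, with 2 rising and 1 falling (18.8%). The 21 others had a median of −0.13, with 1 rising (4.76%). The backgrounds were 12.7% of all probe sets and 26.2% of those with a mean of log2 6 or more. The median size of the difference, whatever its sign, was 0.26 for the mitochondrial and 0.13 for the other probe sets. The mitochondrial probe sets also varied more between replicates. Their median SD was 0.07 in old and 0.16 in young samples, against 0.05 and 0.11 for the others. Their log2 values ran from 4.19 to 11.88, against 8.14 to 13.47 for the others. Whether signal level or replicate spread accounts for the larger differences was not tested.

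The design also allows the mitochondrial and the cytosolic enzyme of the same amino acid to be compared within each sample. For 16 such pairs, the log2 value of the mitochondrial gene minus that of the cytosolic gene was taken in each sample and set against age. With 3 samples against 3, the two-sided exact permutation test of such a value cannot give a p below 0.1, so it says no more than whether the samples overlap, and the pairs are given as a description. Old and young samples did not overlap in 9 of the 16 pairs. For single probe sets the share was 28.7% of all and 53.6% of those with a mean of log2 6 or more. No such share was taken for pairs of other genes. Each pair difference is centred on its mean over the 3 young samples, since levels of different probe sets are not comparable.

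For leucine the centred difference was 0.50, 0.45 and 0.54 in old samples, against 0.08, 0.11 and −0.18 in young samples, so the mitochondrial gene had shifted by 0.50 relative to the cytosolic one. For tryptophan it was 0.46, 0.36 and 0.35 in old samples, against 0.04, −0.01 and −0.03 in young samples, a shift of 0.39. For glutamate it was 0.40, 0.22 and 0.29 in old samples, against 0.03, −0.21 and 0.18 in young samples, a shift of 0.31. In these 3 amino acids the mitochondrial gene was higher in old flies relative to its counterpart, and no old sample overlapped with a young one. For glutamate, Old5 at 0.22 lay close to Young3 at 0.18. There the shift came with a difference of 0.02 in the mitochondrial and −0.28 in the cytosolic gene, Aats-glupro.

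The opposite order held for phenylalanine, cysteine, isoleucine, aspartate and tyrosine. PheRS-m shifted by −0.43 relative to alpha-PheRS and by −0.50 relative to beta-PheRS. CysRS-m shifted by −0.50, IleRS-m by −0.54, AspRS-m by −0.31 and TyrRS-m by −0.21 relative to their cytosolic counterparts. In each of these, old and young samples did not overlap. For aspartate, the shift came with a difference of −0.01 in the mitochondrial and 0.30 in the cytosolic gene. In all, the mitochondrial gene had the more positive difference in 6 pairs and the more negative in 10, and the pairs of phenylalanine share PheRS-m while those of glutamate and proline share Aats-glupro.

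**Figure D5:**
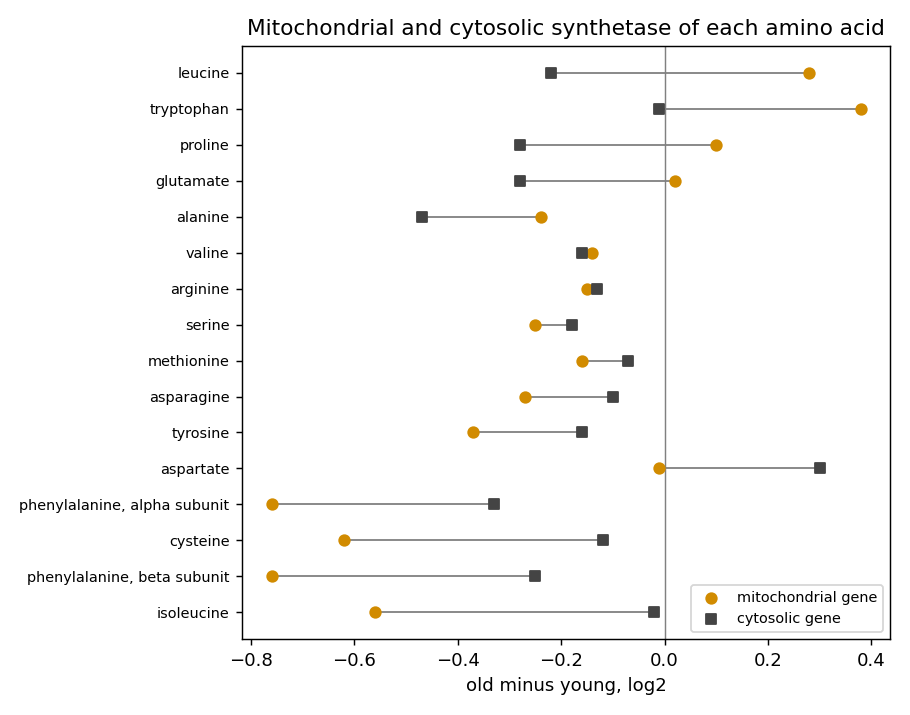
Old minus young difference (x axis, log2 units) of the mitochondrial gene (circle) and the cytosolic gene (square) for 16 pairs, 1 row per amino acid or subunit, joined by a line. The circle lies right of the square by 0.50 for leucine and 0.39 for tryptophan, and left of it by 0.54 for isoleucine and 0.50 for cysteine.

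Genes that work with the synthetases were described from short lists. Of 7 charging partners, 2 were higher and 5 lower in old flies, with a median of −0.22, and 1 fell at FDR under 0.05 (14.3%, against 12.7% of all probe sets and 26.2% of those with a mean of log2 6 or more). The AIMP scaffold genes AIMP1, AIMP2 and AIMP3 differed by 0.05, −0.01 and −0.22 (FDR 0.96, 1 and 0.113). The mitochondrial elongation factor mEFTu1, which carries charged tRNA to the ribosome, had 10.61, 10.69 and 10.75 in old samples, against 11.00, 11.15 and 11.38 in young samples (−0.49, FDR 0.0512). The gene that fell, CG1750, has no other name in the tables, and whether it takes part in charging itself was not examined. It had 6.31, 6.38 and 6.72 in old samples, against 8.13, 8.03 and 8.67 in young samples, a difference of −1.81 (SE 0.212, fold difference −3.5, FDR 0.00898), which also passed the 3 criteria.

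The sensors of amino acid and unfolded protein stress were mostly near 0. Of 11 probe sets, 8 were higher and 3 lower in old flies, with a median of 0.04. At FDR under 0.05, 2 rose and 1 fell (27.3%, against 12.7% of all probe sets and 26.2% of those with a mean of log2 6 or more). Gcn2 differed by −0.07 (95% interval −0.46 to 0.31) and crc, the fly ATF4, by 0.03 (95% interval −0.02 to 0.07). Xbp1, a transcription factor of the unfolded protein response, had 10.48, 10.67 and 10.69 in old samples, against 9.66, 9.58 and 9.39 in young samples. This is an upregulation by 1.07 (SE 0.0933, fold difference 2.1, FDR 0.00437), past the 3 criteria, and without Young3 it lay at the limit of the fold criterion (FDR 0.0115).

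The 2 others that changed also belong to the unfolded protein response. The Ire1 probe set with the higher signal, for the kinase and nuclease that splices Xbp1 mRNA, rose by 0.58 (FDR 0.029), and the other Ire1 probe set was at 2.11 to 2.99, near the low end of the scale. Atf6, a membrane-bound transcription factor, fell by 0.66 on the log2 scale (FDR 0.0448). Both lost an FDR under 0.05 in 8 of 15 alternatives, among them the methods' t-test (0.0714 and 0.0989).

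Of 9 genes for amino acid and one-carbon enzymes whose mammalian counterparts are ATF4 targets, 4 were higher and 5 lower in old flies, with a median of −0.05, and 2 fell at FDR under 0.05 (22.2%, against 12.7% of all probe sets and 26.2% of those with a mean of log2 6 or more). Cbs (cystathionine beta-synthase) had 11.54, 11.54 and 11.50 in old samples, against 11.93, 11.89 and 11.92 in young samples (−0.39, SE 0.018, FDR 0.00126). P5CS (CG7470), of proline synthesis, had 11.06, 10.85 and 11.05 in old samples, against 11.72, 11.64 and 11.52 in young samples (−0.64, FDR 0.0119). Nmdmc, of mitochondrial folate metabolism, had 12.44, 12.24 and 12.11 in old samples, against 8.54, 9.59 and 11.14 in young samples. All old samples were higher, but the young samples spread widely (SD 1.31), and the difference of 2.50 (95% interval 0.71 to 4.30, FDR 0.0948) passed the 3 criteria and not an FDR under 0.05. It no longer passed the 3 criteria with the methods' t-test (FDR 0.174), without any 1 of the old samples (FDR 0.235 to 0.241) or without Young2 (2.42, FDR 0.233), while without Young3 it was 3.19 (FDR 0.0205) and with array weights 2.69 (FDR 0.00929).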

How the data were processed

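Scans of the amplified RNA were normalized by the authors with GCRMA (Partek 6.5), giving 1 log2 value per probe set, and the deposited log2 values of 18952 probe sets were not normalized again. Scans were not analysed here, so background correction could not be varied from its start, and the number of arrays limits the precision. After 183 control probe sets were left out, 18769 were fitted with limma 3.58.1 (R 4.3.3), with age group as the only term; limma stands in for SAM and the t-test of the methods. p-values were adjusted over all 18769 by the Benjamini-Hochberg method (FDR). "Rose", "fell", "upregulated" and "downregulated" mean an FDR under 0.05. The script was tested on simulated data. Every synthetase probe set is counted; where 1 value stands for a gene, it is that of its brightest probe set; related genes come from short lists, with values for called and family genes. Of 79 listed genes, 77 were matched. Members and lists were chosen with earlier results of these data known. Samples were biological replicates according to the methods. The labels number the old samples differently from the table, and no batch was given. The table holds no coordinates, so none are given. The 15 alternatives covered the test, variance prior, array weights, scaling, low values, averaged probe sets and each sample left out.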

Additional observations from a re-analysis of the deposited data

How the results depend on the processing

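The count of synthetase probe sets past the 3 criteria was 0 under all 15 alternatives, and the median difference stayed between −0.16 and −0.06. At FDR under 0.05, array weights, which gave Young2 a weight of 7.96, called 3 higher and 3 lower (21.4% of all probe sets). Re-quantiling and a group mean of log2 6 or more each called 2 lower (of all probe sets fitted, 12.3% and 34.2% were called). Leaving out 1 sample gave 1 to 2 higher (2 without Young1) and 0 to 3 lower (0 without Old5, 2 without Young1, 3 without Young2). The share of all probe sets called was 7.3% without Old5, 12.7% without Young1 and 8.62% without Young2. Aats-phe-m kept its sign throughout (−0.83 to −0.65). Differences near 0 changed sign: with array weights MetRS was 0.04, Aats-ile 0.02 and AspRS-m 0.13; with quantiles again Aats-gln was −0.02; with values under log2 6 raised Aats-pro was −0.00. Leaving out 1 sample gave ranges across 0 for MetRS (−0.14 to 0.00), Aats-ile (−0.05 to 0.01), Aats-his (−0.04 to 0.00), Aats-trp (−0.03 to 0.03), Aats-gln (−0.02 to 0.09), AspRS-m (−0.08 to 0.11) and GluRS-m (−0.06 to 0.10). The cause was not tested. No paired analysis was possible because the columns of the old samples carry no number shared with the young ones; the methods describe flies of each replicate taken at both ages, so samples may share a cohort. With 3 arrays a group, the exact permutation test cannot go below 0.1.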
